A study of Mus musculus with 2 samples.

Results

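Chemokine ligands are small proteins that draw leukocytes along a gradient, and the measurements below are of their RNAs in prostaspheres, a culture in which prostate epithelial cells form spheres within Matrigel. The ligands were all genes whose name on the array is Ccl, Cxcl, Cx3cl or Xcl followed by a number only, read from spots that are not controls. This gave 33 genes with 42 probes, of 27827 genes with 41174 probes. Ligands with another name (Pf4, Ppbp, Ccl21a, Ccl27a) are outside this rule. Each array held 1 RNA labeled with Cy5 and 1 labeled with Cy3. In the genotype comparison the Cy5 RNA came from wild-type prostaspheres treated with tamoxifen (TAM) and the Cy3 RNA from ER-Sox9flox/flox prostaspheres treated with TAM. In the treatment comparison both RNAs came from ER-Sox9flox/flox prostaspheres, treated with vehicle for Cy5 and with TAM for Cy3. ER-Sox9flox/flox cells (ERCre+/+Sox9flox/flox) carry floxed Sox9 and a Cre recombinase, driven from the Rosa26 locus, that TAM activates in any cell type, so TAM removes Sox9. The labels do not say whether the wild-type cells carried this Cre. All cells were labeled C57/Bl6J and grew with dihydrotestosterone for 6 days before 6 days of TAM at 5 µM or vehicle. By the labels the cells were epithelium of the urogenital sinus from embryos of 16 dpc. The methods give the prostasphere assay for adult prostate. How many animals or cultures gave each RNA is not stated, so the spread between arrays may be partly technical.

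Chemokines are grouped by the spacing of their first cysteines. CC ligands mainly attract monocytes, eosinophils and lymphocytes. CXC ligands with an ELR motif attract neutrophils, the CXC ligands that interferon induces attract T cells, and Cx3cl1 and Cxcl16 are made as membrane proteins and shed. In the prostate both epithelial and stromal cells can make these ligands, and much of the inducible set is under the control of NF-kB.

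The probes that carry the main results are shown first, since related ligands could share signal if their probes were alike. The first 30 of the 60 bases of each probe are given, with the position of the whole probe in the annotation of the array, build mm9. Ccl2 was read at chr11:81850650-81850709 and Ccl7 at chr11:81860656-81860715, side by side. Cxcl1 was read at chr5:91321845-91321904 and Cxcl13 at chr5:96389861-96389920. Cxcl12 was read at chr6:117131227-117131286 and Cx3cl1 at chr8:97306185-97306244, all on the plus strand.

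Ccl2: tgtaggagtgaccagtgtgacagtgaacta
Ccl7: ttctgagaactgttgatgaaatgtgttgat
Cxcl1: agaagtgcagagagatagagtttagtatta
Cxcl13: gatttattgtcttgcattaaaaccagtaac
Cxcl12: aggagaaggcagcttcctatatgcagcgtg
Cx3cl1: tcccagagcagaatgtgggccgtaacaatc

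Between probes of different ligands the longest run of bases in common was 13, for Ccl8 and Ccl12, and the next was 11. Such runs do not measure likeness over the whole 60 bases. The probes were not compared with the transcripts of other ligands, so shared signal was not tested.

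Every log2 ratio below is Sox9-expressing (Cy5) over Sox9-deleted (Cy3) RNA, with the 2 arrays as replicates (n = 2). Brightness is the normalised intensity of a spot in arbitrary units and can be compared between RNAs for 1 probe, not between probes. No array had the dyes swapped, so that dye bias of a probe and a difference between the RNAs cannot be told apart. The brightest Sox9 probe had log2 ratios of 2.69 and 2.37, a second probe 1.18 and 1.27, and the third was below 0, at -1.11 on average. Markers of epithelium were well above background in all 4 RNAs for 7 of 7 genes, as were stromal markers for 8 of 8. Of 13 leukocyte markers, 5 were above background in all 4 RNAs (Cd14, Cd68, Csf1r, Fcer1g and Itgax), and 5 in none, among them Ptprc, Itgam, Emr1 and Cd3e, which define leukocytes, macrophages and T cells. In RNA from whole cultures, fewer cells of a type and less RNA per cell cannot be told apart.

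Of the 33 ligands, 18 were well above background, by the mark of the scanner software, in all 4 RNAs. A further 3 were above it in 3 RNAs, 1 in 2 RNAs, 2 in 1 RNA and 9 in none. The wild-type RNA held 18 ligands above background and the other RNAs held 22, 22 and 23. Of all 41174 probes, 22184 were above background in the wild-type RNA, there too the fewest. The other RNAs held 22701, 23080 and 23150 probes, in the same order. The 9 at background everywhere were Ccl1, Ccl3, Ccl4, Ccl12, Ccl22, Ccl24, Cxcl2, Cxcl11 and Xcl1. Many of these are products of activated leukocytes: Ccl3 and Ccl4 of macrophages, Ccl22 of dendritic cells and Xcl1 of T cells. Ccl28, a mucosal ligand, was above background in the Cy3 RNA of the treatment comparison only, and Cxcl17, another mucosal ligand, in the vehicle RNA only. The other 22 ligands met the condition for testing, which is that 1 and the same dye be above background on each array. Of all 27827 genes, 15131 met it.

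No ligand passed limma at an adjusted p under 0.05, 0 of 22, where 0.0132% of 15131 genes tested did. At an unadjusted p under 0.05 there were 6 ligands (27.3%), Ccl2, Ccl7, Cx3cl1, Cxcl1, Cxcl13 and Cxcl16, beside 19.5% of all genes. The methods' t-test called 2 ligands before adjustment and 0 after it. At least 2-fold lower on both arrays was 1 ligand, Ccl7, beside 0.159% of all genes, and at least 2-fold higher on both were 0 ligands, beside 0.377%. With 1.5-fold as the threshold, which was chosen after the data were seen, Ccl2, Ccl7 and Cxcl1 were lower on both arrays (3 ligands, beside 0.886% of all genes). Cx3cl1 and Cxcl13 were higher on both (2 ligands, beside 1.36%). In sign alone, 8 ligands (36.4%) were lower on both arrays and 5 (22.7%) higher on both, where each was true of 33.8% of all genes. Of the 18 ligands above background in all 4 RNAs, 6 were lower on both and 4 higher on both. Opposite signs were found for 9 of the 22, beside 32.4% of all genes. The 22 ligands had a median log2 ratio of -0.16 on the genotype array and 0.21 on the treatment array, with medians over all genes of -0.01 and 0.01. For the 18 ligands above background in all 4 RNAs these medians were -0.29 and 0.37.

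**Figure D1:**
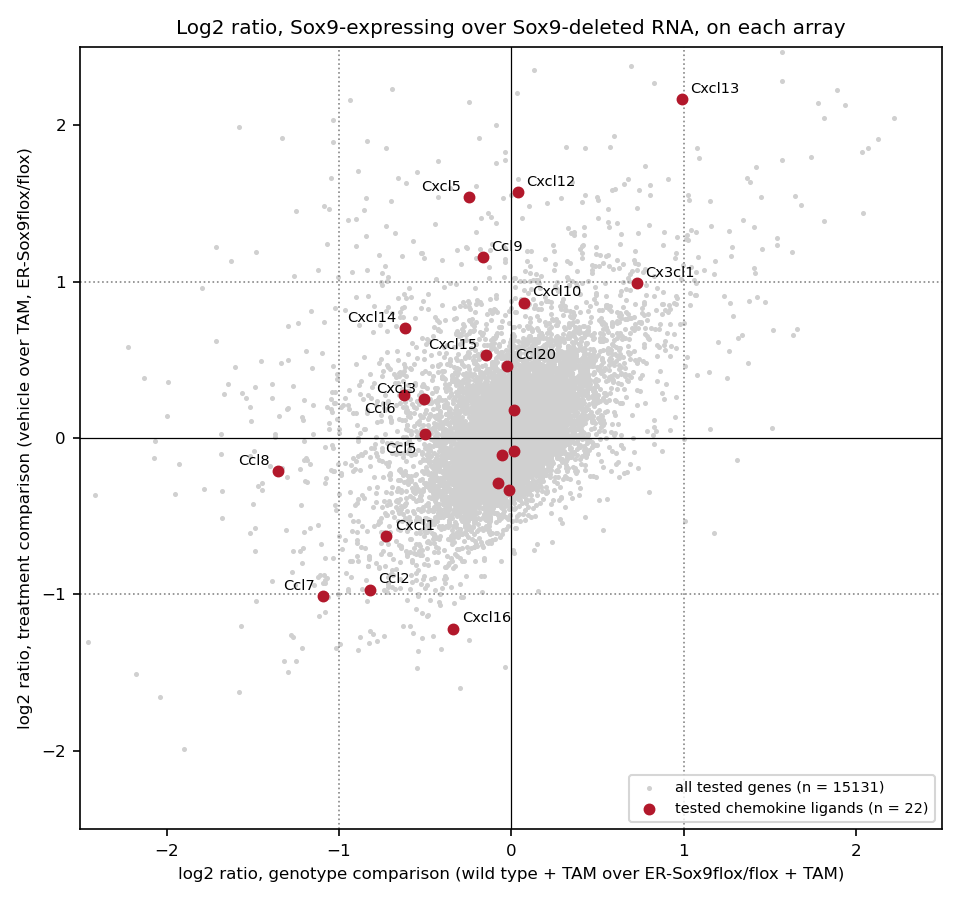
Log2 ratio in the genotype comparison (x axis) and in the treatment comparison (y axis) of the 22 tested ligands (red) and all 15131 tested genes (grey), with dotted lines at 2-fold; 25 genes lie outside the axes of 2.5. Ccl7 lies in the corner lower on both arrays, Cxcl13 and Cx3cl1 lie toward the corner higher on both, and Cxcl5, Cxcl12 and Ccl9 lie near 0 in the genotype comparison and above 1 in the treatment comparison.

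The monocyte attractants Ccl7 and Ccl2 had the lowest mean log2 ratios of the 22 ligands. Ccl7, which attracts monocytes through Ccr2 among other receptors, had a brightness of 795 in wild-type cells and 910 in vehicle-treated cells, against 1692 and 1836 in the Sox9-deleted RNAs. Both Sox9-expressing RNAs thus lay below both Sox9-deleted RNAs. The log2 ratios of Ccl7 were -1.09 and -1.01, with mean and SD of -1.05 ± 0.05 (n = 2, adjusted p of 0.0833 by limma), or 2.07-fold lower. A second Ccl7 probe gave -0.94 and -0.84. Ccl2, the main ligand of Ccr2, had a brightness of 3627 and 3131 in Sox9-expressing RNA and 6409 and 6132 in Sox9-deleted RNA, again with no overlap. On the arrays this gave log2 ratios of -0.82 and -0.97, with mean and SD of -0.90 ± 0.10 (n = 2, adjusted p of 0.0903 by limma), or 1.86-fold lower. Ccl2 had 10 spots on each array, and the SD of the log2 ratio between spots was 0.034 on the genotype array and 0.031 on the treatment array. For Ccl2 and Ccl7 the mean was thus larger than the spread between arrays, and for Ccl2 also larger than the spread between spots. Ccl7 was no longer 2-fold lower on both arrays with median centring, with the arrays scaled to one spread or with its probes averaged.

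Both genes lie in a group of CC ligand genes on chromosome 11, where 6 ligands have probes within 139.7 kb (81850650 to 81990395, mm9). Of the 4 tested ligands of this group, Ccl2, Ccl7 and Ccl8 were above background in all 4 RNAs and lower on both arrays. Ccl11 was lower too, but it was tested through Cy3 alone, the dye in which it was brighter, which favors this sign. Over all genes 33.8% were lower on both arrays. Ccl8, a monocyte and lymphocyte attractant, had a brightness of 196 in wild-type and 355 in vehicle-treated cells, against 503 and 411 in the Sox9-deleted RNAs. The genotype array gave a log2 ratio of -1.36 and the treatment array one of only -0.21 (mean -0.78 ± 0.81), so its mean did not exceed the spread. Ccl11, the eosinophil attractant eotaxin, was near background at -0.05 and -0.11. A second group on the same chromosome (83339296 to 83478111) holds 5 ligands, of which the 3 tested, Ccl5, Ccl6 and Ccl9, had log2 ratios of opposite sign on the arrays. Ccl5, which attracts T cells and monocytes, had -0.50 and 0.02, from a brightness of 358 and 641 in Sox9-expressing RNA and 508 and 630 in Sox9-deleted RNA. Ccl6, a myeloid attractant, had -0.62 and 0.28, from 389 and 856 against 598 and 706. Ccl9, another ligand of Ccr1, had -0.16 and 1.16 from 126 and 315 against 141 and 141. In these 3 genes the wild-type RNA was the dimmest of the 4 and the vehicle-treated RNA the brightest. The mean of Ccl5 and Ccl6 turned above 0 with median centring.

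Over the 7 tested monocyte and eosinophil CC ligands of 11 on the array, the median of the mean log2 ratios was -0.24. Of these 7, 4 were lower on both arrays and 0 higher on both, beside 33.8% of all genes in each direction. Ccl11, among the 4, was tested through Cy3 alone, the dye in which it was brighter. Their summed brightness, over all 11, was 5946 and 6673 in Sox9-expressing RNA and 10312 and 10331 in Sox9-deleted RNA. This sum is mostly Ccl2 and Ccl7, and the other 9 summed to 1525 against 2212 on the genotype array and to 2632 against 2364 on the treatment array, where the direction turned. Leukocyte markers, summed over all 13, were at 2916 and 3931 in Sox9-expressing and at 4729 and 4292 in Sox9-deleted RNA. Without Cd14, the largest part of that sum, they were at 1425 and 1434 against 1658 and 1711. Most of the difference that was left lay in Cd68 alone, at 333 and 318 against 536 and 545. Of the 7 leukocyte markers tested, 6 were lower on both arrays, beside 33.8% of all genes. Aif1 and Tyrobp, among the 6, were tested through Cy3 alone, the dye in which they were brighter, which favors this sign. Fcer1g, also among them, was near 0 at -0.004 and -0.021. Cd68, a lysosomal protein of macrophages, had log2 ratios of -0.69 and -0.77 (limma adjusted p = 0.0979), Cd14, a receptor for bacterial lipopolysaccharide, had -1.04 and -0.05, and Itgax, an integrin of dendritic cells, had -0.13 and -0.24. Ptprc, Itgam and Emr1, which define leukocytes and macrophages, were at background in all 4 RNAs. The part of leukocytes in the values of Ccl2 and Ccl7 was not tested.

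**Figure D2:**
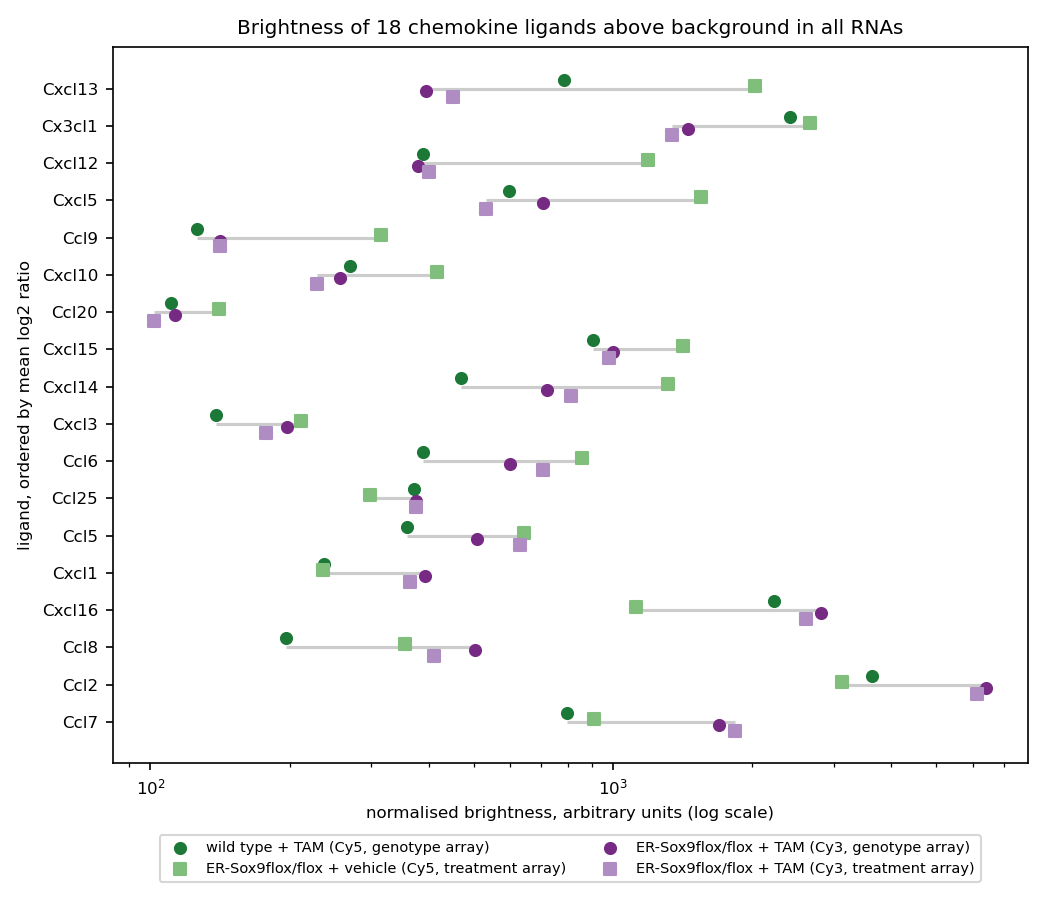
Normalised brightness (x axis, log scale, arbitrary units) of the brightest probe of each of the 18 ligands above background in all 4 RNAs, ordered by mean log2 ratio, with 1 point per RNA set at slightly different heights and a grey line over their range. The purple points (Sox9-deleted) lie close together in nearly every gene, whereas the green points (wild type, dark; vehicle, light) lie far apart for Cxcl12, Cxcl13, Cxcl14, Cxcl5 and Ccl9.

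Among the ligands that tissue cells make, Cx3cl1 and Cxcl13 had log2 ratios above 0 on both arrays. Cx3cl1 (fractalkine), a membrane-bound ligand that monocytes and T cells bind through Cx3cr1, had a brightness of 2410 and 2665 in Sox9-expressing RNA and 1456 and 1343 in Sox9-deleted RNA. The pairs of RNAs did not overlap. On the log2 scale its ratios were 0.73 and 0.99, with mean and SD of 0.86 ± 0.18 (n = 2, adjusted p of 0.106 by limma), or 1.81-fold higher. Its second probe was at background in all 4 RNAs. Cxcl13, which attracts B cells through Cxcr5, had a brightness of 783 in wild-type cells and 2025 in vehicle-treated cells, against 395 and 451 in the Sox9-deleted RNAs. The Sox9-expressing RNAs were both above the Sox9-deleted ones, and far from each other. The log2 ratios of Cxcl13 were 0.99 and 2.17, with mean and SD of 1.58 ± 0.83 (n = 2, adjusted p of 0.167 by limma). The genotype value lay just under the 2-fold threshold, and 6 of 9 other ways of processing put Cxcl13 past it on both arrays. With median centring limma called both genes. Over the ways of processing the limma adjusted p of Cxcl13 lay between 4.6e-09 and 0.289 and that of Cx3cl1 between 0.00165 and 0.289, each lowest with median centring. That setting left the medians of all genes at 0.016 on the genotype array and 0.42 on the treatment array. With 1 residual degree of freedom limma draws on the variance of all genes, so these p-values do not measure the spread of 1 gene between arrays. Epithelial markers did not share a direction: of 7, 4 had both ratios above 0 (Krt5, Krt14, Trp63 and Epcam) and 2 both below 0 (Cdh1 and Krt18). Each was true of 33.8% of all genes. Krt5, Krt14 and Trp63, markers of basal cells, were at least 2-fold higher on both arrays (3 of 7, beside 0.377% of all genes). Summed over all 7, the epithelial markers were at 390522 and 318879 in Sox9-expressing and at 218506 and 259753 in Sox9-deleted RNA. Without Krt5 and Krt14 the sums were 152962 and 118493 against 162945 and 205410, the opposite direction. Their part in the values of Cx3cl1 and Cxcl13 was not tested.

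Cxcl12, Cxcl16 and Cxcl14 differed between the arrays. Cxcl12, which signals through Cxcr4 and is bound by Cxcr7, had a brightness of 388 in wild-type cells, 378 and 401 in the Sox9-deleted RNAs and 1193 in vehicle-treated cells. Its log2 ratios were 0.04 and 1.57 (mean 0.80 ± 1.09, limma adjusted p = 0.387), and its second probe gave 0.03 and 1.17. Only the vehicle-treated RNA stood apart, with both probes. The limma adjusted p of Cxcl12 over the ways of processing lay between 0.00605, with median centring, and 0.513. Cxcl16, a membrane-bound ligand and scavenger receptor that T cells bind through Cxcr6, was brighter in Sox9-deleted RNA at 2816 and 2610 than in wild-type cells at 2231 and in vehicle-treated cells at 1122. Its log2 ratios were -0.34 and -1.22 (mean -0.78 ± 0.62, limma adjusted p = 0.244), and -0.27 and -0.90 with its second probe. Cxcl14, made by many epithelia, had a brightness of 471 in wild-type and 1319 in vehicle-treated cells, with 721 and 811 in the Sox9-deleted RNAs between them. Its log2 ratios were -0.62 and 0.70, and its mean of 0.04 ± 0.93 was below 0 in 4 of the 9 other ways of processing. The tissue ligands tested, 5 of 6 on the array, had a median of 0.04 on the genotype array and of 0.99 on the treatment array.

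The neutrophil attractants were tested for 4 of the 5 ELR CXC ligands on the array, whose genes lie together on chromosome 5 (91190205 to 91334593, mm9). Cxcl1, which acts through the receptor listed here as Il8rb, had a brightness of 237 and 236 in Sox9-expressing RNA and 392 and 365 in Sox9-deleted RNA. The pairs did not overlap and each was nearly constant. Its log2 ratios were -0.72 and -0.63, with mean and SD of -0.68 ± 0.07 (n = 2, adjusted p of 0.105 by limma), or 1.60-fold lower. Cxcl5, a neighbor with the same receptor, had 596 in wild-type and 1547 in vehicle-treated cells against 706 and 532 in the Sox9-deleted RNAs. That gave log2 ratios of -0.24 and 1.54 (mean 0.65 ± 1.26, limma adjusted p = 0.518, with 0.0314 under median centring and 0.656 at most). Cxcl3 had -0.51 and 0.25, from 139 and 211 against 197 and 178, and its mean turned above 0 with median centring. Cxcl15, a neutrophil attractant first known from lung epithelium, had -0.15 and 0.53, from 903 and 1415 against 1001 and 979. Cxcl1 was the only one of the 4 with the same sign on both arrays, where opposite signs were found for 32.4% of all genes. Differences between these neighboring genes were not tested.

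Of the 3 ligands that interferon induces, which bind Cxcr3 on T cells, Cxcl11 was at background in all 4 RNAs. Cxcl10 had a brightness of 271 and 417 in Sox9-expressing RNA and 257 and 229 in Sox9-deleted RNA, with log2 ratios of 0.07 and 0.87 (mean 0.47 ± 0.56). Cxcl9 was not well above background in the Sox9-expressing RNA of either array, and its log2 ratios were 0.01 and -0.08. Neither mean was larger than its spread. The lymphocyte and mucosal ligands tested were 4 of 8 on the array, with means between -0.18 and 0.22. Ccl20, the ligand of Ccr6 and an epithelial product, had -0.03 and 0.46, from a brightness of 111 and 141 against 113 and 102. Ccl25, which attracts T cells of thymus and gut through Ccr9, had -0.01 and -0.33, from 372 and 298 against 375 and 376, and its mean turned above 0 with median centring. Ccl17 (a ligand of Ccr4) had 0.02 and 0.18, and Ccl19 (a ligand of Ccr7, with near-identical gene copies in mouse) had -0.08 and -0.29. With the scanner software's processed signals the mean of Ccl20 was 0.87 and that of Ccl19 was -0.92. All of Ccl11, Ccl17 and Ccl19 were below the background mark in the wild-type RNA.

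Which of the RNAs differed can be read from the levels of the same dye on the 2 arrays. The Sox9-deleted RNAs, which come from the same genotype and treatment, were close: the levels of the 22 ligands differed by a median of 0.13 on the log2 scale, against 0.07 for all genes, and by 0.41 at most (Cxcl5). By 2-fold or more differed 0 of 22 ligands, beside 0.0198% of all genes. The Sox9-expressing RNAs, wild type with TAM and ER-Sox9flox/flox with vehicle, were less alike, with a median difference of 0.62 for the ligands against 0.14 for all genes. By 2-fold or more differed 6 of 22 ligands, Ccl6, Ccl9, Cxcl12, Cxcl13, Cxcl14 and Cxcl5, beside 1.98% of all genes. All 6 were brighter in the vehicle-treated RNA. Cxcl16 differed the other way by 0.99, just under that threshold. The share of 1.98% holds both directions and was not split. Over all genes, too, log2 ratios larger by 1 or more lay mostly in the treatment comparison, 2.17% against 0.0859% in the genotype comparison. Each Sox9-expressing condition is a single RNA, so genotype, TAM exposure and the culture cannot be told apart.

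In the genotype comparison 0 ligands were at least 2-fold higher (0.588% of all genes) and 2, Ccl7 and Ccl8, at least 2-fold lower (1.08%). In the treatment comparison 4 were at least 2-fold higher, Ccl9, Cxcl12, Cxcl13 and Cxcl5 (1.73% of all genes), and 2 lower, Ccl7 and Cxcl16 (0.377%). The log2 ratio was larger by 1 or more in the treatment comparison for 6 ligands, Ccl8, Ccl9, Cxcl12, Cxcl13, Cxcl14 and Cxcl5, beside 2.17% of all genes. It was larger by 1 or more in the genotype comparison for 0 ligands, beside 0.0859%. The difference between the comparisons has 1 array on each side and was not tested.

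Stromal markers, like the 6 ligands just named, had larger log2 ratios in the treatment than in the genotype comparison. Over 8 of 8 markers of stromal cells, the median of the log2 ratios was -0.78 on the genotype array and 0.72 on the treatment array. Col1a1, a fibrillar collagen, had -1.26 and 1.03 and Col3a1, another, had -1.63 and 1.13. Pdgfra had -0.72 and 0.47. Dcn, the marker with the largest mean in size, was below 0 on both arrays, at -0.77 and -0.14. The summed brightness of the markers was 25282 in wild-type cells, 69637 in vehicle-treated cells, and 47622 and 40768 in the Sox9-deleted RNAs. Of these sums the collagen Col1a2 alone gave 10632, 31655, 18993 and 15030, and no sum without collagens was computed. In the sum the wild-type RNA was lowest and the vehicle-treated RNA highest. The same order was seen for Ccl5, Ccl6, Ccl9, Cxcl3, Cxcl14 and Cxcl15, but not for Cxcl5, Cxcl12 or Cxcl13. For Ccl5 it rests on 641 in vehicle-treated cells against 630 in Sox9-deleted RNA. The share of all genes in this order was not computed. Fibroblasts are a known source of Cxcl12, Cxcl14, Ccl2 and Ccl7. Both Sox9-expressing RNAs were dimmer than both Sox9-deleted RNAs for Ccl2, Ccl7, Ccl8, Ccl11, Ccl19, Ccl25, Cxcl1 and Cxcl16. These are the 8 ligands lower on both arrays (36.4%, beside 33.8% of all genes). The share of all genes with such a separation was not computed. Ccl11 and Ccl19, near background, were tested through Cy3 alone, the dye in which they were brighter. Ccl25 was at 372 against 375 on the genotype array. The part of stromal cells in the values of the ligands was not tested. Of 6 endothelial markers, Pecam1, Tek and Tie1 were at background in all 4 RNAs, and the 3 tested had a median of -0.12 on the genotype array and -0.09 on the treatment array.

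**Figure D3:**
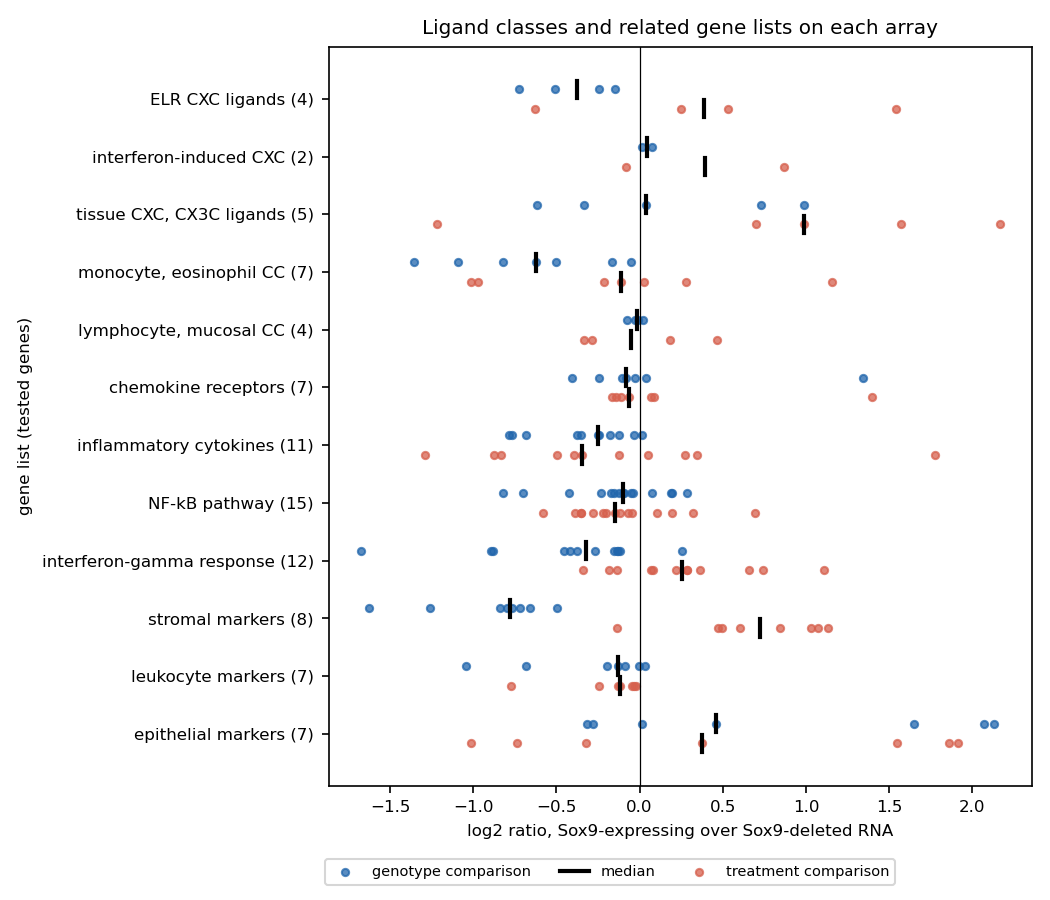
Log2 ratio, Sox9-expressing over Sox9-deleted RNA (x axis), of each tested gene of the ligand classes and related lists in the genotype (blue) and treatment (red) comparison, with a black bar at each median. Stromal markers lie left of 0 in the genotype comparison and, but for 1, right of 0 in the treatment comparison, while inflammatory cytokines have medians below 0 on both (-0.25 and -0.35).

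Most receptors were at background. Of 23 chemokine receptors on the array, 15 were above background in none of the 4 RNAs, among them Ccr2, Cx3cr1, Cxcr5 and Cxcr6, which are the receptors of Ccl2, Cx3cl1, Cxcl13 and Cxcl16. The condition for testing was met by 7 of the 23, beside 15131 of all 27827 genes. Of these 7, 1 was at least 2-fold higher on both arrays and 0 lower, beside 0.377% and 0.159% of all genes. This was Cxcr7, an atypical receptor that takes up Cxcl12, with a brightness of 1279 and 1373 in Sox9-expressing RNA and 504 and 522 in Sox9-deleted RNA. Its log2 ratios were 1.34 and 1.40, a mean of 1.37 (limma adjusted p = 0.0737). In contrast to Cxcl12, Cxcr7 was alike in wild-type and vehicle-treated cells. Ccrl1, which takes up Ccl19 and Ccl25, had -0.41 and -0.11, and Ccrl2, which binds the attractant chemerin, had -0.24 and -0.07.

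Lists around the ligands had few differences of this size. Of 15 tested NF-kB targets and regulators, 8 had both ratios below 0 and 1 had both above 0, beside 33.8% of all genes in each direction. The median of their means was -0.10, and 0 were past 2-fold on both. The means farthest from 0 were -0.52 for Birc3, an inhibitor of apoptosis, -0.47 for Tnfaip2 and -0.41 for Nfkb2, a subunit. Of 11 tested inflammatory cytokines and mediators, 6 had both ratios below 0 and 0 had both above 0, beside the same shares of all genes, and the median of their means was -0.31. Ptgs2, the inducible cyclooxygenase, had -0.76 and -0.83 (limma adjusted p = 0.0903) and Il1a had -0.68 and -0.87, both near the values of Cxcl1 and Ccl2. Il33, a nuclear cytokine, had -0.03 and 1.78. It was above background in all 4 RNAs and, as Cxcl12 was, by far brightest in the vehicle-treated RNA (4307, against 1479 in wild type and 1514 and 1257 in Sox9-deleted RNA). No gene of these lists passed limma at an adjusted p under 0.05.

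The promoters of 4 ligands are shown, from RefSeq in build GRCm38.p6, whose coordinates cannot be set against those of mm9 above. A promoter of 250 bases before to 50 after the start was at hand for 23 of the 33 ligands (24 promoters). Those of Ccl2, Ccl4, Ccl5, Ccl7, Ccl11, Ccl24, Cxcl5, Cxcl11, Cxcl16 and Cxcl17 were not analysed here. The 120 bases before the start follow, with matches to the NF-kB consensus or to TATAAA in capitals. Cxcl1 (chr5:90891125-90891244, plus strand) and Cxcl3 (chr5:90785981-90786100, plus strand) are shown as neighbors, the first with the same sign on both arrays and the second with opposite signs. Cxcl13 (chr5:95956819-95956938, plus strand) and Cx3cl1 (chr8:94772060-94772179, plus strand) are shown as the ligands at least 1.5-fold higher on both arrays.

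Cxcl1: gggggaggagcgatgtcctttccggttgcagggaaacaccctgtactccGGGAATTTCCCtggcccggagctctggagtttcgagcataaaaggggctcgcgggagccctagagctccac
Cxcl3: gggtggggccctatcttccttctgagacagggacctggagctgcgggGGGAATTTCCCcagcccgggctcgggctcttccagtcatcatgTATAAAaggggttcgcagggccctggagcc
Cxcl13: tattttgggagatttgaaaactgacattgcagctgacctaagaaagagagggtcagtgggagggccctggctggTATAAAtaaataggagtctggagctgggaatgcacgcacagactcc
Cx3cl1: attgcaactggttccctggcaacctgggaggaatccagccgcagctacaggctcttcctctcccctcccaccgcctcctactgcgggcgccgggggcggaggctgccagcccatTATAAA

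The NF-kB consensus, searched on both strands, was held by 7 of the 24 ligand promoters and by 8.46% of 32851 promoters of the same length. Cxcl1, Cxcl2 and Cxcl3 hold the same letters, GGGAATTTCC, at -71, -97 and -73 from the start. The consensus was also matched there on the opposite strand, 1 base further on. Of these genes Cxcl1 was lower on both arrays, Cxcl3 went opposite ways and Cxcl2 was at background. TATAAA was held by 9 ligand promoters and 13.6% of all, among them Cxcl13 at -46 and Cx3cl1 at -6. The core of an interferon response element, 2 runs of GAAA set 2 bases apart, was held by 3 (Ccl19, Cxcl10 and Cxcl14) and by 3.44% of all. AACAATG, a sequence that Sox proteins bind, was held by 0 of the 24 and by 3.78% of all. A match is a description of the letters and not of binding.

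**Figure D4:**
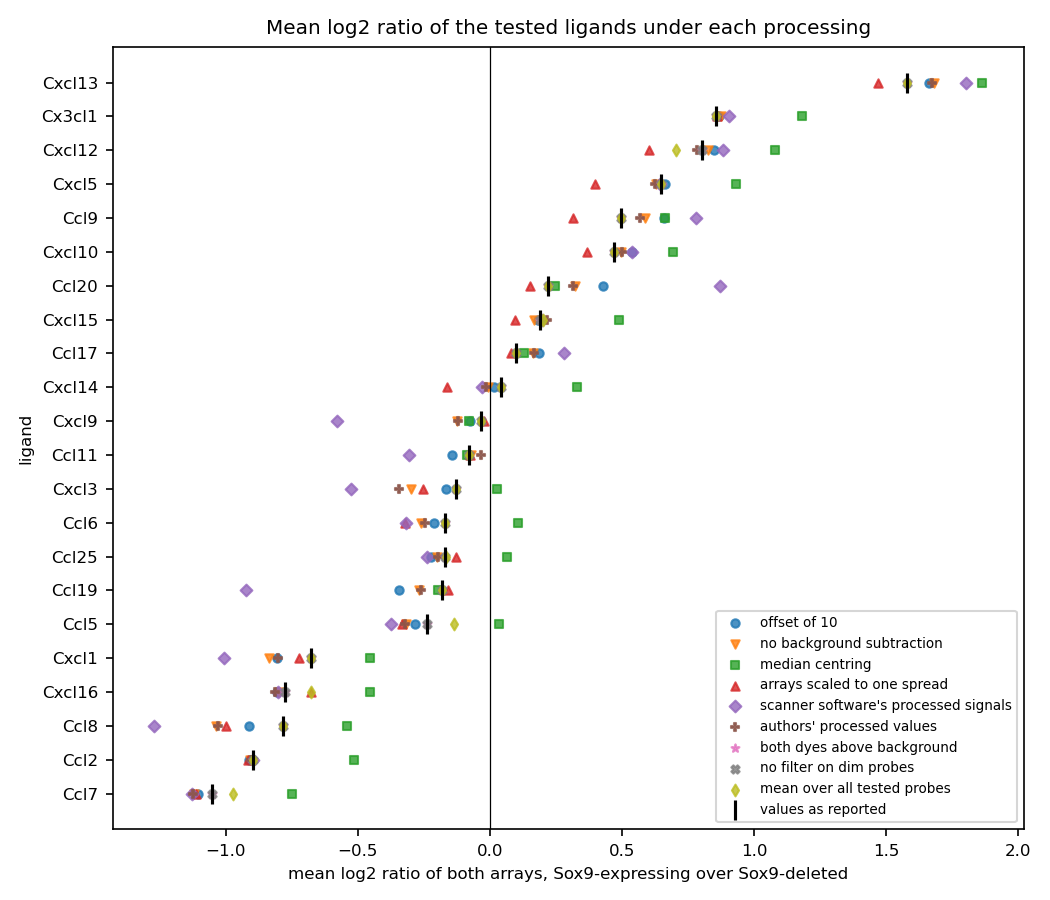
Mean log2 ratio of both arrays, Sox9-expressing over Sox9-deleted RNA (x axis), of the 22 tested ligands as reported (black bars) and under each other processing (colored symbols). Ccl2, Ccl7, Cxcl1, Cxcl16 and Ccl8 lie below 0 and Cxcl13, Cx3cl1 and Cxcl12 above 0 in every case, and median centring (green squares) lies farthest right for most of the brighter ligands.

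The means of the ligands were computed under 10 ways of processing in all. Ccl7 ranged from -1.13 to -0.75, Ccl2 from -0.92 to -0.51 and Cxcl1 from -1.01 to -0.46. Cxcl13 ranged from 1.47 to 1.86 and Cx3cl1 from 0.86 to 1.18. Median centring, which puts the median of all genes in the treatment comparison at 0.42 and over both arrays at 0.21, gave the highest values of Ccl2, Ccl7, Cx3cl1 and Cxcl13.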

How the data were processed

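The authors deposited, as given by the scanner software (Agilent Feature Extraction 10.5.1.1), for each spot and dye a mean intensity and, as local background, a median intensity. Per the file headers the software also deposited a log10 ratio of Cy5 over Cy3 from its own background-subtracted, dye-normalized intensities. A table of the authors' log2 values was deposited too. Its slope on the software's log2 ratios was 0.940 and 0.945 across spots, which fixes direction and log base, and its medians were -0.0099 and -0.0034. How it was made is not given in the sources used here beyond the tool limma, named in the submitters' processing notes.

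From the mean intensities, background was corrected with normexp in limma 3.58.1 (R 4.3.3), with an offset of 50, which shrinks log2 ratios of dim probes. Of 45018 spots per array, 1639 control spots were left out and the arrays were normalized by loess. Outlier spots (126 and 130) were dropped and spots of a probe averaged. Brightness was taken after Aquantile scaling. Probes were tested (22731) where 1 and the same dye was well above background on each array, with lmFit and eBayes against 0, 2-sided, with Benjamini-Hochberg adjustment over all of them. There is 1 residual degree of freedom. The code was tested on simulated data. The brightest probe stood for its gene. Both arrays were on 1 slide, 0 spots were saturated, and the number of arrays limits the precision. Motifs were searched with Python 3.11.15, and figures drawn with matplotlib 3.10.9.

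RNAs were assigned by titles, genotypes, treatments and dyes in the labels. For the treatment comparison the genotype label of both RNAs is Sox9 null, which for the vehicle-treated RNA goes against the group it has here, Sox9-expressing, taken from title and treatment. The source names, which call each Cy5 RNA SOX9 and each Cy3 RNA control, were not used. The members and gene lists were chosen with earlier results of these data known. All tested ligands are named, with brightness in every RNA for those with a mean of at least 0.5 in size or above background in all 4 RNAs. Of the other lists, genes at least 2-fold in one direction on both arrays and the 3 with the largest mean are named, except for items that are not reported here.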

Additional observations from a re-analysis of the deposited data

Results flagged for a closer look

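For 9 of the 22 tested ligands the log2 ratio had opposite signs in the genotype and treatment comparisons. With 1 array in each comparison, the difference between them was not tested. The log2 ratio of the treatment comparison minus that of the genotype comparison was 1.78 for Cxcl5, 1.32 for Ccl9, 1.32 for Cxcl14, 0.90 for Ccl6, 0.75 for Cxcl3, 0.68 for Cxcl15, 0.53 for Ccl5, 0.49 for Ccl20 and -0.095 for Cxcl9. Only for Cxcl14 was the log2 ratio at least 0.5 in size on each array. Over all tested genes 32.4% had opposite signs. Stromal markers had medians of -0.78 and 0.72 in these comparisons, and their part in the ligand values was not tested.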

How the results depend on the processing

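limma called 0 ligands as reported and 4 with median centring, namely Cx3cl1 at a mean log2 ratio of 1.18, Cxcl12 at 1.08, Cxcl13 at 1.86 and Cxcl5 at 0.93. That setting moves the median of all genes to 0.21, so these values are 0.21 above their distance from the typical gene, and it called 426 of 15131 genes where the reported setting called 2. The authors' values called 56 and no filter 16. The methods' t-test called 2 ligands before adjustment and 0 after it. At least 2-fold higher on both arrays was 1 ligand, Cxcl13, with an offset of 10, without background subtraction, with median centring, with the arrays scaled to one spread, with the scanner software's signals and with the authors' values, against 0 as reported. At least 2-fold lower were 0 ligands with median centring, with scaling and with the mean over all tested probes, against 1 as reported. With 1.5-fold, chosen after seeing the data, these counts were 2 and 3. With 1 array left out, the counts at least 2-fold higher ran from 0 to 4, those at least 2-fold lower were 2 with either array, and the median of the ligands ran from -0.16 to 0.21.

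The mean of Ccl25 became 0.063, of Ccl5 0.033, of Ccl6 0.11 and of Cxcl3 0.028 with median centring. That of Cxcl14 became -0.0073 without background subtraction, -0.015 with the authors' values, -0.029 with the software's signals and -0.16 with scaling. The cause was not tested. With the scanner software's signals the means of several dim ligands were farther from 0, Ccl8 at -1.27, Cxcl1 at -1.01, Ccl19 at -0.92, Ccl20 at 0.87, Cxcl9 at -0.58, Cxcl3 at -0.53 and Ccl11 at -0.31. With 1 array left out, log2 ratios ran from -0.026 to 0.46 for Ccl20, from -0.50 to 0.025 for Ccl5, from -0.62 to 0.28 for Ccl6, from -0.16 to 1.16 for Ccl9, from -0.62 to 0.70 for Cxcl14, from -0.15 to 0.53 for Cxcl15, from -0.51 to 0.25 for Cxcl3, from -0.24 to 1.54 for Cxcl5 and from -0.082 to 0.013 for Cxcl9. The filter for both dyes left 18 ligands and turned none of their signs. No paired analysis was possible because each array already sets 1 RNA against another and the arrays form 1 group. Without a dye swap, and with signal near background for Ccl11, Ccl17, Ccl19, Ccl20 and Cxcl9, small ratios of these ligands carry little precision.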

Other observations

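The ligands whose names fall outside the rule gave further values. All 6 on the array were well above background in all 4 RNAs, and 0 passed limma at an adjusted p under 0.05. Ppbp, the platelet ligand Cxcl7 with an ELR motif, had a log2 ratio of -1.79 on the genotype array and of 0.96 on the treatment array, from a brightness of 522 in wild-type cells, 3348 in vehicle-treated cells and 1810 and 1724 in the Sox9-deleted RNAs. This is the order of RNAs seen for Cxcl14 and for the stromal markers. Pf4, its neighbor in the genome and also a platelet ligand, had -0.46 and -0.32. Mif, a cytokine that binds Cxcr4 and Cd74, had 0.51 and 0.82 (limma adjusted p = 0.139).

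Of 12 tested genes of the interferon-gamma response, 3 were lower and 1 higher on both arrays, beside 33.8% of all genes in each direction. Their median was -0.32 on the genotype array and 0.25 on the treatment array. Irf7, a transcription factor of the interferon response, had -1.68 and -0.34, and Igtp, a GTPase that interferon-gamma induces, had -0.89 and 0.08. Of 5 tested proteases that cut chemokines or their membrane forms, 3 were lower and 1 higher on both arrays, beside the same shares of all genes. Mmp12, among the 3 at -0.07 and -0.06, was tested through Cy3 alone, the dye in which it was brighter. Mmp2, a gelatinase, had -1.45 and -0.29, Mmp9, another, had -0.86 and -0.56, and Adam10, which sheds Cx3cl1 and Cxcl16, had 0.34 and 0.53.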
